A study of Mus musculus with 8 samples.

Results

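The 43 genes described here make and run the lysosome and the autophagy pathway. They were chosen by name from a count table of 34745 mouse genes. They are 26 genes of the lysosome, 15 genes of autophagosome formation and cargo capture, and the transcription factors Tfeb and Tfe3, which were placed in neither set. All 43 were in the table, and all 43 passed the filter on low counts in a test that ran over 14040 genes.

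Messenger RNA was sequenced from mouse bone marrow-derived macrophages (BMDMs), which are primary cells grown from bone marrow with M-CSF, the macrophage growth factor, here at 20 ng/ml in every group. The 8 libraries form 4 groups of 2. They are KAT8-deficient cells given R848 at 100 ng/ml for 6 h, KAT8-deficient cells left untreated, WT cells given the same R848, and WT cells left untreated. KAT8 (MOF) is an enzyme that acetylates histones, and the deficient cells are titled KAT8-cKO in the labels. R848 (resiquimod) is a small molecule that activates endosomal Toll-like receptors. The promoter that drives any Cre, the deleted exons and the age and number of mice were not given in the labels. The labels do not say whether the replicates came from separate mice or cultures, so the p-values measure the spread between these libraries, which may be technical.

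The lysosome is the acidic compartment in which proteins, glycans and lipids taken up or handed over by the cell are broken down. Autophagy delivers to it parts of the cell's own cytoplasm, enclosed in a double membrane that carries lipid-linked proteins of the ATG8 family. TFEB and TFE3 are basic helix-loop-helix factors that move to the nucleus when mTORC1 is inactive and activate many lysosomal and autophagy genes through E-box motifs with the core CACGTG. Macrophages are rich in lysosomal hydrolases, which serve phagocytosis and antigen processing.

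The libraries held between 18550977 and 21384532 counts, so that 3 counts correspond to 0.14 to 0.163 CPM (counts scaled to a common library size). CPM values use TMM library sizes, and such floors cover counting error only. Kat8 itself, at chr7:127912516-127925837 (GRCm38), had 9.94 and 10.4 CPM in R848-treated KAT8-deficient libraries, 8.76 and 10.8 CPM in untreated KAT8-deficient libraries, 18 and 16 CPM in R848-treated WT libraries and 17 and 17.9 CPM in untreated WT libraries. Kat8 was thus lower in all 4 KAT8-deficient libraries but not absent, with log2 differences of -0.74 (SE 0.12) under R848 and -0.83 (SE 0.13) without it. The 10 macrophage markers checked (among them Csf1r, Adgre1 and Cd68) were all detected. Their summed level was 9427 to 10630.1 CPM in KAT8-deficient libraries and 15869 to 17318 CPM in WT libraries. Lyz2 carries most of this gap, with 5202 to 5943.5 CPM in KAT8-deficient libraries and 11028 to 12139.5 CPM in WT libraries. Whether the Lyz2 gap came from the loss of KAT8 or from the alleles used to delete it was not tested. The other 9 markers summed to 4224.5 to 4687 CPM in KAT8-deficient libraries and 4672 to 5178.5 CPM in WT libraries, which overlap only at the ends of these ranges. Markers of stromal cells were also present. The summed level of 11 stromal markers (collagens, Dcn, Pdgfra and others) was 4044 to 4806 CPM in KAT8-deficient libraries and 2753 to 3796 CPM in WT libraries. Of the 10 stromal markers tested, 8 were higher in untreated KAT8-deficient cells than in untreated WT cells and 9 under R848, with none lower. The summed level of 8 neutrophil markers stayed between 4.43 and 8.05 CPM and that of 6 dendritic cell markers between 14.3 and 24.6 CPM, and 1 gene of each list had no count in any library. In such bulk libraries, fewer cells of a type and less RNA per cell cannot be told apart.

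A RefSeq promoter window (GRCm38.p6, 250 bases before to 50 bases after the annotated start) was at hand for 35 of the 43 genes. The E-box CACGTG, which reads the same on both strands, occurred in windows of 11 of these 35 genes (31.4%). Over all genes with a window it occurred in 2187 of 27025 (8.09%). The 11 genes are Lamp1, Mcoln1, Ctsa, Ctsd, Ctsl, Gaa, Gla and Glb1 of the lysosomal set (8 of 22, 36.4%) and Atg3, Atg5 and Atg7 of the autophagy set (3 of 11, 27.3%). The longer CLEAR palindrome, an E-box flanked by GT and AC, was in none of the 35 genes' windows and in 0.37% of all genes. A match is a stretch of letters and not a binding site, and no match says nothing of whether TFEB binds. Of the 35 genes, 29 had a window whose start also matched a GENCODE transcript of that gene, and 9 of these 29 held the E-box. The E-box genes without such a match were Atg5 and Atg7. Atg3 was thus the only autophagy gene with an E-box in a matched window, while all 8 lysosomal genes had one. For Ctsa the E-box lay in a window at a start inside the annotated gene (chr2:164833523-164833822). The other Ctsa window (chr2:164832622-164832921) held no E-box, and its start did not match a GENCODE transcript.

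The 250 bases before the start are printed for 3 genes with an E-box (Lamp1, which has 4 of them in a row, Gla and Ctsa) and for 3 genes without it that passed a test described further on (Gusb, Gabarapl1 and Sqstm1). For Ctsa the stretch before the start inside the gene is printed. All stretches are on the strand of the gene, 5′ to 3′, with each CACGTG in capitals. They lie at chr8:13158911-13159160 (Lamp1, plus strand), chrX:134601006-134601255 (Gla, minus strand), chr2:164833523-164833772 (Ctsa, plus strand), chr5:130003050-130003299 (Gusb, minus strand), chr6:129532942-129533191 (Gabarapl1, plus strand) and chr11:50210821-50211070 (Sqstm1, minus strand) of GRCm38.p6.
Lamp1: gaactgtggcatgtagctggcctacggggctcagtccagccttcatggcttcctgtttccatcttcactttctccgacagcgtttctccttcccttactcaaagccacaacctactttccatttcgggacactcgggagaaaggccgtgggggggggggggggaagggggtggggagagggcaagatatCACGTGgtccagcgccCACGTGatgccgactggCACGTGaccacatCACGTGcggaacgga
Gla: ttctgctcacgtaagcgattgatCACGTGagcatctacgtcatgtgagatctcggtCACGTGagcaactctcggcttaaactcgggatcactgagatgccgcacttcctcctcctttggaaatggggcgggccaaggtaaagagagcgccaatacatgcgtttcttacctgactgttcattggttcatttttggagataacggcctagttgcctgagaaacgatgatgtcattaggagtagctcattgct
Ctsa: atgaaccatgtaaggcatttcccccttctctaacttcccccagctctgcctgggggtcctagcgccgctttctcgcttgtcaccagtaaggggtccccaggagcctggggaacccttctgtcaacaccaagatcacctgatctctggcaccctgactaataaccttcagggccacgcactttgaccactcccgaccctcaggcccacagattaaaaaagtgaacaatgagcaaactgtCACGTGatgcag
Gusb: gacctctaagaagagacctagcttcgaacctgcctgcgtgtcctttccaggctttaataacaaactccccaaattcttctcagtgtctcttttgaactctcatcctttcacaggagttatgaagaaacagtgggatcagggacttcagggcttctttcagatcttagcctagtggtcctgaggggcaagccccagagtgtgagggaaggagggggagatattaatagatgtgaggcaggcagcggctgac
Gabarapl1: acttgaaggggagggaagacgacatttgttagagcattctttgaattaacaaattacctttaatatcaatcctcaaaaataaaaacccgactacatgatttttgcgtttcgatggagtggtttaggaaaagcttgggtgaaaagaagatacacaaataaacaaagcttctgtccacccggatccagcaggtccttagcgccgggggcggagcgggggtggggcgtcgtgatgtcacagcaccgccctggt
Sqstm1: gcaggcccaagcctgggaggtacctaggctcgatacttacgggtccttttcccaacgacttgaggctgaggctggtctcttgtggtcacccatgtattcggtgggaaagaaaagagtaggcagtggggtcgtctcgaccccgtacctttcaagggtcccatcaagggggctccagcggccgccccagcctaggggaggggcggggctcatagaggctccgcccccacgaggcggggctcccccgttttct

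**Figure D1:**
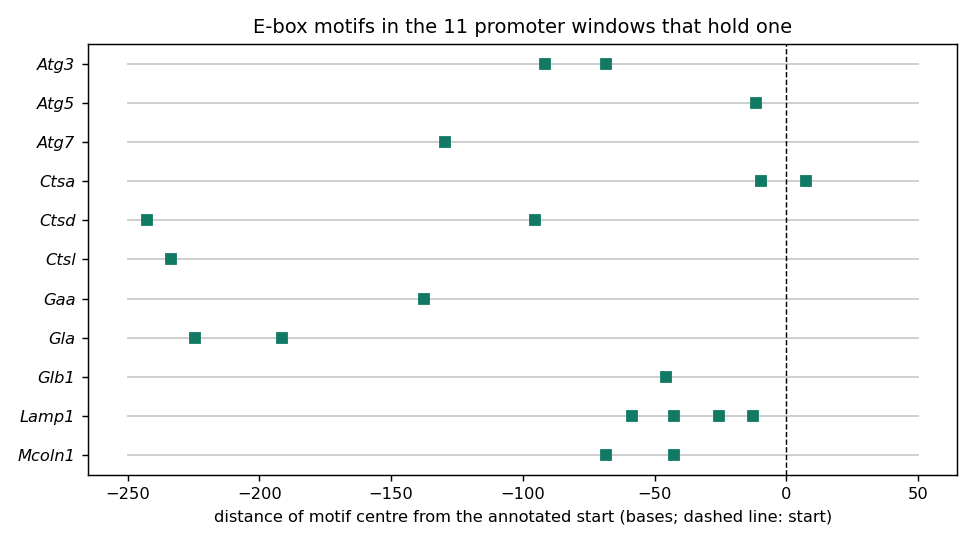
Position of each CACGTG motif (squares, centre of the motif) relative to the annotated start (dashed line, in bases) for the 11 genes whose promoter windows (grey lines, 250 bases before to 50 bases after the start) hold at least 1. Lamp1 has 4 motifs close to its start, and both Gla motifs lie near the far end of the window. The starts used for Atg5 and Atg7 did not match a GENCODE transcript of the gene, and the start used for Ctsa lies inside the annotated gene.

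Both sets were well expressed, and the lysosomal set far above the autophagy set. Levels per length are CPM divided by the kilobases of all annotated exons of a gene, merged (RPKM), so long annotated exons lower them. The 26 lysosomal genes had mean levels over the 8 libraries from 14.6 (Mcoln1, the lysosomal calcium channel) to 10351 RPKM (Ctsd, an aspartic protease), with a median of 219 RPKM. The 15 autophagy genes ran from 4.17 (Atg16l1, part of the lipidation complex) to 260.1 RPKM (Gabarap, an ATG8 protein), with a median of 15 RPKM. Lysosomal genes took 8.86% to 9.75% of all counts in a library and autophagy genes 0.213% to 0.264%. Ctsd, Psap and Ctsb together held 65.4% to 66.9% of the lysosomal counts. Ctsd shares 808 exonic bases (34.4% of its exon bases) with the gene Gm49369 on its own strand. The count data held no row for Gm49369, so its part in the Ctsd counts is not known. Depth was not limiting for either set: the lowest count of a lysosomal gene in any library was 1924 and that of an autophagy gene 290.

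Within the lysosomal set, the peptidases Ctsd, Ctss and Ctsb and the lipid-handling gene Psap led. The other lipid-handling genes and cofactors ran from 32 (Ppt1) to 412.6 RPKM (Grn). After Ctsd at 10351 RPKM came Psap, the precursor of the saposins that help to degrade sphingolipids, at 7269 RPKM. Ctss, the cysteine protease that trims the invariant chain, followed at 4708 RPKM, and Ctsb at 2842 RPKM. In CPM, Ctsb (14976 to 18664 CPM, 6051 merged exon bases) lay above Ctss (5372 to 8147.5 CPM, 1358 bases). Among membrane proteins, Lamp1 averaged 1225 RPKM, while Lamp2 was at 81.7, Scarb2 (the receptor that carries glucocerebrosidase to the lysosome) at 49.0 and the cholesterol exporter Npc1 at 46.7 RPKM. Glycosidases lay between 46.8 RPKM (Neu1, a sialidase) and 659 RPKM (Hexa). In the autophagy set, Gabarap at 260.1, the cargo receptor Sqstm1 (p62) at 253 and Gabarapl1 at 110.3 RPKM stood above the other 12 genes, which ran from 4.17 RPKM to the 33.1 RPKM of Atg3. Of the ATG8 genes, Map1lc3a averaged 23.5 RPKM and Map1lc3b 7.51 RPKM. In CPM their order was reversed, with 26.3 to 29.1 CPM for Map1lc3a (1181 merged exon bases) and 52.6 to 62.3 CPM for Map1lc3b (7517 bases). Tfe3 averaged 14.6 RPKM and Tfeb 12.0 RPKM.

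**Figure D2:**
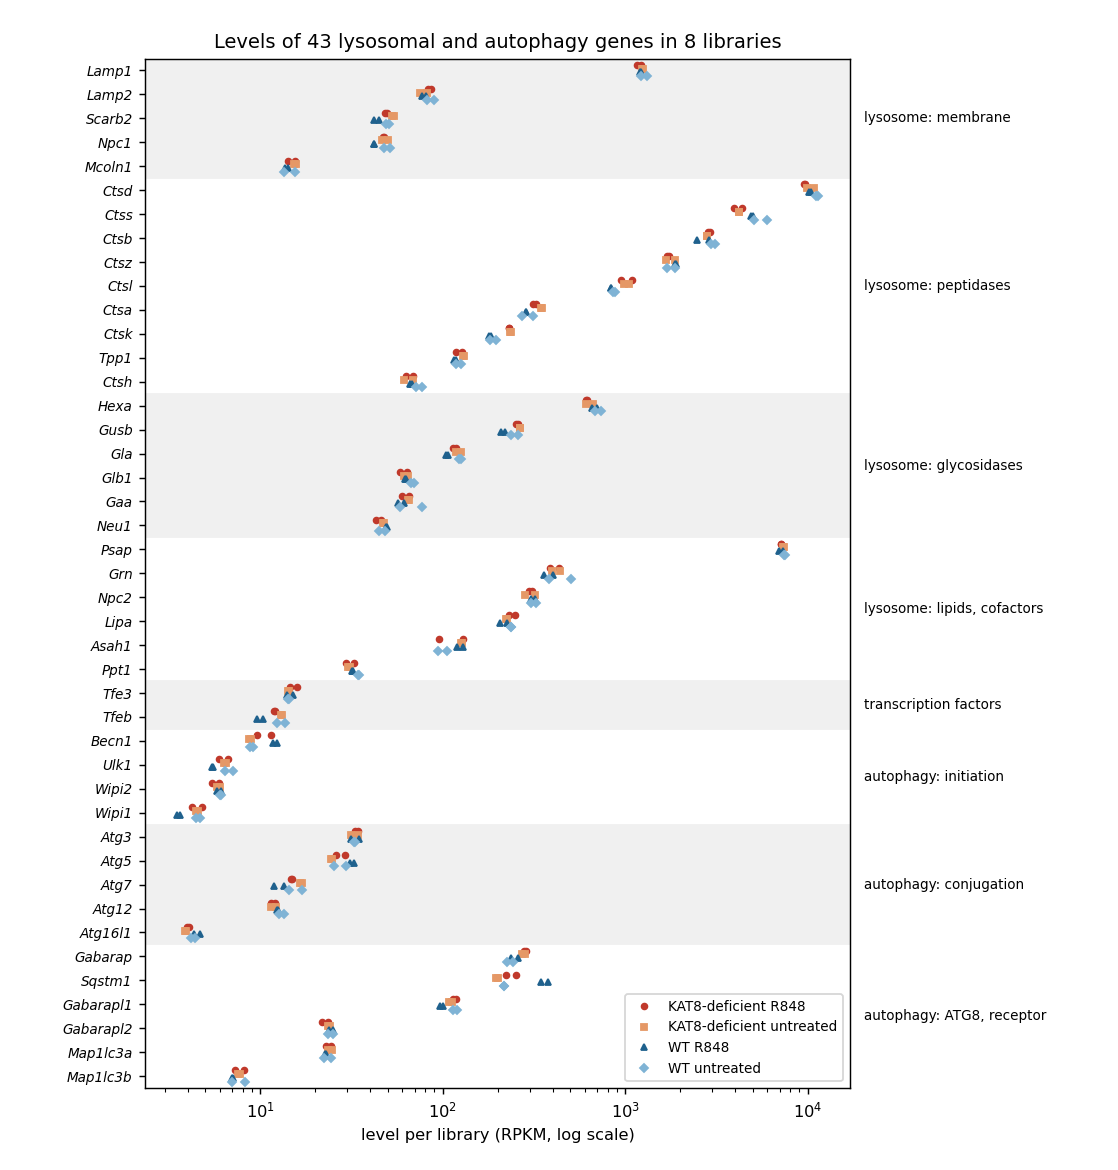
Level of each of the 43 genes in each of the 8 libraries (RPKM, log scale), in groups by role and ordered by mean level within each, with 2 points per group of libraries. The lysosomal genes span 14.6 to 10351 RPKM and the autophagy genes 4.17 to 260.1 RPKM, and the points of one gene lie close together next to the distance between genes.

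The response to R848 was compared in each genotype. In KAT8-deficient cells, none of the 43 genes passed the test (adjusted p under 0.05 in edgeR's quasi-likelihood test over all 14040 genes). Over all genes, 0.634% passed in this comparison. The adjustment sets a stricter cut where fewer genes pass, so numbers of calls are not on an equal footing between comparisons. The lowest adjusted p of a member was 0.181, and DESeq2 and limma-voom passed none either. Without adjustment, 2 of the 43 were under 0.05, against 16 of the 43 in the response of WT cells. In KAT8-deficient cells the 26 lysosomal genes had log2 fold changes from -0.16 to 0.11, with a median of -0.05 and 20 of 26 below 0. The 15 autophagy genes ran from -0.17 to 0.27, with a median of 0.01 and 9 above and 6 below 0. The median over all genes was 0.002. R848-treated and untreated KAT8-deficient libraries did not overlap for 9 genes that were higher and 11 that were lower with R848 (9 of the 11 lysosomal). Of all genes, 23.8% and 23% were in these classes.

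In WT cells, 9 of the 43 genes passed the test (20.9%), 2 higher and 7 lower with R848. Of all genes, 13.6% passed, with 6.94% higher and 6.7% lower. Both that rose belong to autophagy, Sqstm1 and Becn1. Those that fell were 4 lysosomal genes (Gla, Npc1, Gusb and Scarb2), 2 autophagy genes (Gabarapl1 and Wipi1) and Tfeb. The lysosomal set had a median log2 fold change of -0.11, with 23 of 26 genes below 0 and a range from -0.24 to 0.31. Autophagy genes spread more widely, from -0.35 to 0.74, with a median of -0.03 and 7 above and 8 below 0. All genes had a median of -0.002. In the same comparison, stromal markers fell for 5 and rose for 1 of 10, with a median of -0.33. They summed to 2753 and 2958 CPM in R848-treated WT libraries and 3277 and 3796 CPM in untreated WT libraries, and their part in the response of the lysosomal set was not tested. R848-treated and untreated WT libraries did not overlap for 21 of the 43 genes that were lower (15 of them lysosomal) and 6 that were higher, while 28.3% and 27.7% of all genes were in these classes.

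**Figure D3:**
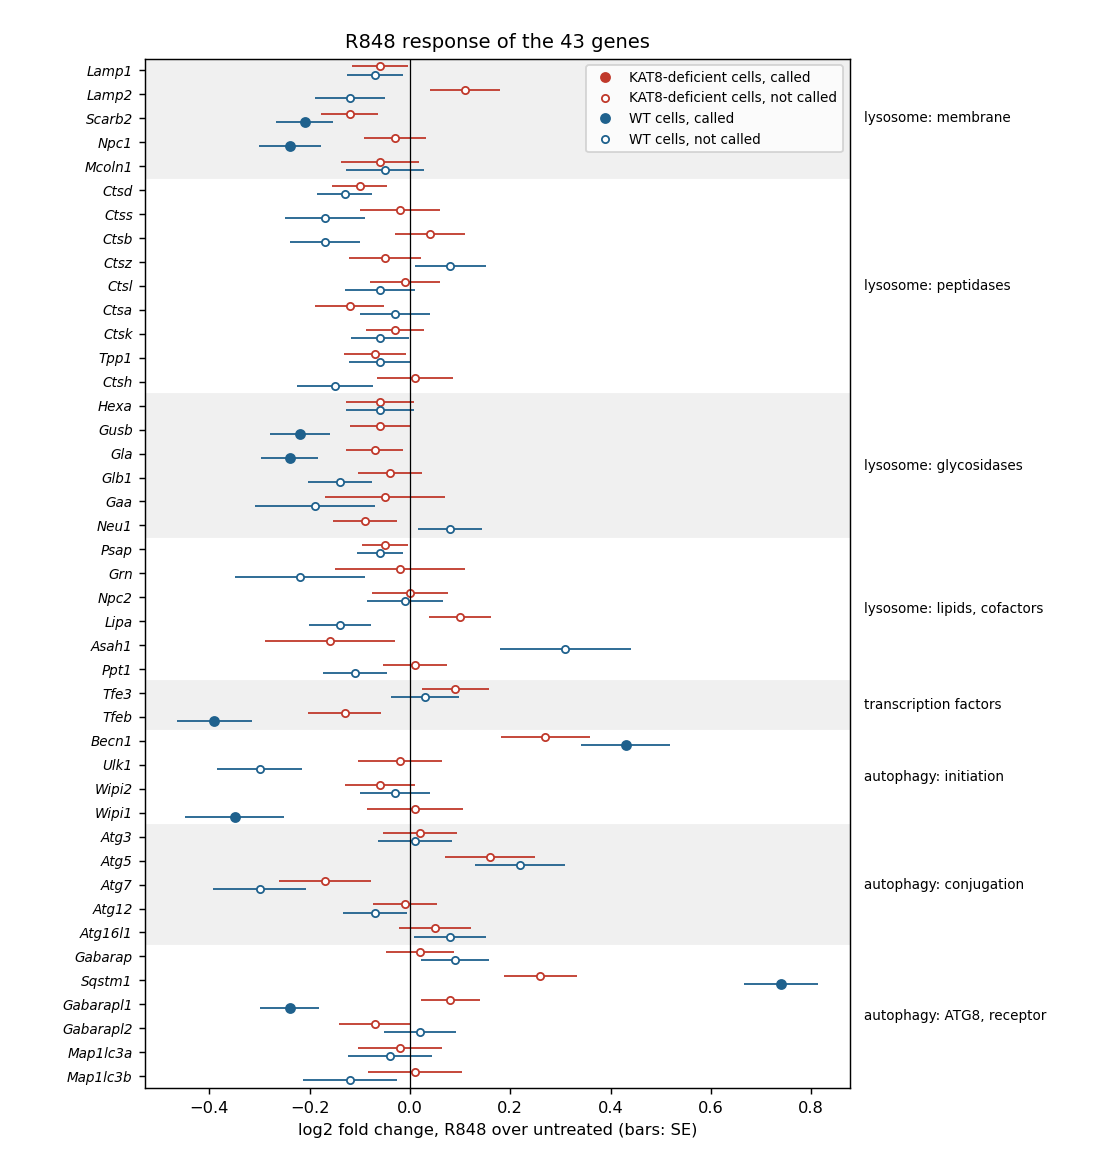
The log2 fold change of R848-treated over untreated cells for each of the 43 genes, in KAT8-deficient cells (red) and WT cells (blue), with bars of 1 standard error (SE). Filled points passed the test at an adjusted p under 0.05. In WT cells Sqstm1 stands apart at 0.74. Most lysosomal genes lie left of 0 in both genotypes (20 of 26 in KAT8-deficient and 23 of 26 in WT cells), while no red point is filled.

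Sqstm1 encodes p62, which binds ubiquitinated cargo and ATG8 proteins (chr11:50199366-50210827, minus strand). It had 743 and 839.8 CPM in R848-treated KAT8-deficient libraries, 672 and 653 CPM in untreated KAT8-deficient libraries, 1161 and 1271 CPM in R848-treated WT libraries, and 728 and 729.7 CPM in untreated WT libraries. The R848-treated WT libraries were above all other 6, and the untreated KAT8-deficient libraries were the lowest. With R848 it rose in WT cells by 0.74 on the log2 scale (SE 0.073, adjusted p = 0.000352). The log2 change in KAT8-deficient cells was 0.26 (SE 0.073, adjusted p = 0.181), with a 95% interval from 0.09 to 0.42. On the opposite strand, Mrnip shares 580 exonic bases with Sqstm1, and its 221 counts over all libraries stand against 134317 for Sqstm1.

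Becn1 encodes beclin, a subunit of the lipid kinase complex that starts the autophagosome. It had 81.6 and 67.6 CPM in R848-treated KAT8-deficient libraries, 62.6 and 61.3 CPM in untreated KAT8-deficient libraries, 87.3 and 83.4 CPM in R848-treated WT libraries, and 64.1 and 62.3 CPM in untreated WT libraries. Treated libraries of either genotype were above the untreated ones. The rise in WT cells was 0.43 (SE 0.089, adjusted p = 0.0139), and the log2 change in KAT8-deficient cells was 0.27 (SE 0.089, adjusted p = 0.243). The other initiation genes differed. Wipi1, a phosphoinositide-binding protein of early autophagosomes and the autophagy gene with the lowest counts, fell in WT cells by 0.35 (SE 0.098, adjusted p = 0.0472). Ulk1, the initiating kinase, had a log2 change of -0.30 in WT cells (adjusted p = 0.0511), and Wipi2 one of -0.03.

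Tfeb (chr17:47737030-47792419, plus strand) had 67.6 and 68 CPM in R848-treated KAT8-deficient libraries, 73.6 and 75.1 CPM in untreated KAT8-deficient libraries, 54.2 and 58.3 CPM in R848-treated WT libraries, and 69.9 and 77.9 CPM in untreated WT libraries. The R848-treated WT libraries were the lowest of all 8. Tfeb fell with R848 in WT cells by 0.39 (SE 0.074, adjusted p = 0.00879), and its log2 change in KAT8-deficient cells was -0.13 (SE 0.073, adjusted p = 0.46). Tfe3, its relative, had 134 and 147 CPM in R848-treated KAT8-deficient libraries, 131 and 133 CPM in untreated KAT8-deficient libraries, 129.6 and 139.9 CPM in R848-treated WT libraries, and 131 and 133 CPM in untreated WT libraries. Its groups overlapped, except that the treated KAT8-deficient libraries lay just above the untreated ones, and its log2 changes with R848 were 0.09 in KAT8-deficient cells and 0.03 in WT cells (SE 0.067 each).

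Gabarapl1, an ATG8 protein, had 238 and 229.8 CPM in R848-treated KAT8-deficient libraries, 217 and 225.5 CPM in untreated KAT8-deficient libraries, 201 and 195.5 CPM in R848-treated WT libraries, and 228 and 241 CPM in untreated WT libraries. R848 lay above untreated in KAT8-deficient cells and below it in WT cells. Its log2 change was 0.08 in KAT8-deficient cells (SE 0.059, adjusted p = 0.598), and it fell in WT cells by 0.24 (SE 0.059, adjusted p = 0.0263). The other ATG8 genes had log2 changes between -0.12 (Map1lc3b) and 0.09 (Gabarap) in WT cells. Gabarapl2 has near-identical pseudogene copies, so its value is uncertain. No gene of the conjugation machinery passed: the log2 changes in WT cells were -0.30 for Atg7 (adjusted p = 0.067), 0.22 for Atg5, 0.08 for Atg16l1, 0.01 for Atg3 and -0.07 for Atg12.

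The lysosomal genes that fell in WT cells did so by small amounts. Gla, the alpha-galactosidase, had 386 and 373 CPM in R848-treated KAT8-deficient libraries, 385 and 409.7 CPM in untreated KAT8-deficient libraries, 346 and 338 CPM in R848-treated WT libraries, and 409.5 and 402 CPM in untreated WT libraries. The treated WT libraries were the lowest of the 8, and Gla fell in WT cells by 0.24 (SE 0.057, adjusted p = 0.0235), with a 95% interval from -0.38 to -0.11. Npc1, which exports cholesterol from the lysosome, had 529.9 and 536 CPM in R848-treated KAT8-deficient libraries, 524 and 568 CPM in untreated KAT8-deficient libraries, 476 and 472 CPM in R848-treated WT libraries, and 541 and 579 CPM in untreated WT libraries. Npc1 too was lowest in the treated WT libraries and fell by 0.24 (SE 0.062, adjusted p = 0.0363).

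Gusb, the beta-glucuronidase, had 1169.5 and 1145 CPM in R848-treated KAT8-deficient libraries, 1203 and 1202 CPM in untreated KAT8-deficient libraries, 993 and 943 CPM in R848-treated WT libraries, and 1081 and 1179.9 CPM in untreated WT libraries. Its lowest libraries were again the treated WT ones, with a fall of 0.22 (SE 0.06, adjusted p = 0.043). Scarb2 fell by 0.21 (SE 0.057, adjusted p = 0.0463). None of the 9 peptidases passed in WT cells, with log2 changes from -0.17 (Ctsb and Ctss) to 0.08 (Ctsz), and none of the 6 lipid-handling genes and cofactors did. Asah1, the acid ceramidase, had the highest log2 change of the lysosomal set in WT cells, 0.31 (SE 0.13, adjusted p = 0.155).

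Of the 9 calls in WT cells, the Sqstm1 rise alone passed whichever of the 8 libraries was left out. The Tfeb fall was lost without untreated WT replicate 2 (adjusted p = 0.0553) or R848-treated WT replicate 1 (0.0774). The Gla and Becn1 calls were lost without any 1 of the 4 WT libraries (adjusted p 0.0614 to 0.118 and 0.0566 to 0.105). Those of Npc1 and Gabarapl1 were lost without untreated WT replicate 2 or either R848-treated WT library (0.137 to 0.17 and 0.0978 to 0.13). Gusb was lost without those 3 libraries or either untreated KAT8-deficient library (0.0664 to 0.2), Wipi1 without any library but the R848-treated KAT8-deficient ones (0.0692 to 0.201), and Scarb2 without any 1 of the 8 (0.0576 to 0.208). With only the 4 WT libraries in the fit, 3 of the 43 genes passed. In DESeq2, Wipi1 (adjusted p = 0.164) and Scarb2 (0.0646) were lost too, and both were lost with no filter on low counts (0.0614 and 0.0593).

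The genotype comparison without R848 sets untreated KAT8-deficient cells against untreated WT cells. Of the 43 genes, 2 passed (4.65%), 1 higher and 1 lower in KAT8-deficient cells, and both are lysosomal cysteine proteases. Of all genes, 4.27% passed, with 2.91% higher and 1.36% lower. Ctsk, a collagen-degrading cathepsin, was higher by 0.31 (SE 0.058, adjusted p = 0.0242), and Ctss was lower by a log2 difference of -0.40 (SE 0.08, adjusted p = 0.0307). The other 41 genes had no difference that passed, among them Tfeb at 0.01 and Tfe3 at 0.00. The median log2 difference was -0.03 in both the lysosomal and the autophagy set, and -0.007 over all genes. Sqstm1 had a log2 difference of -0.14 (adjusted p = 0.338), with both KAT8-deficient libraries below both WT libraries. The Ctsk call was lost without untreated WT replicate 2 or either untreated KAT8-deficient library (adjusted p 0.0847 to 0.131). The Ctss call was lost without untreated WT replicate 1, either untreated KAT8-deficient library or either R848-treated WT library (0.0586 to 0.173).

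Under R848, 6 of the 43 genes passed between the genotypes (14%), 5 higher and 1 lower in KAT8-deficient cells. The share over all genes was 13.6%, with 8.14% higher and 5.47% lower, so the members' share is close to the background. Higher were the lysosomal genes Ctsk (0.35, SE 0.058, adjusted p = 0.00525), Ctsl (0.28, SE 0.069, adjusted p = 0.0291) and Gusb (0.26, SE 0.06, adjusted p = 0.0246). Tfeb (0.27, SE 0.074, adjusted p = 0.045) and Gabarapl1 (0.24, SE 0.059, adjusted p = 0.0301) were higher as well. Sqstm1 was lower, with a log2 difference of -0.62 (SE 0.073, adjusted p = 0.00112). The median log2 difference was 0.07 in the lysosomal set, 0.03 in the autophagy set and -0.007 over all genes.

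This comparison shares its R848-treated WT libraries with the WT response. For Tfeb, Gabarapl1, Gusb and Sqstm1 those 2 libraries are the lowest or highest of the 8, so the difference between the genotypes under R848 and the WT response draw on the same values. Side by side, the log2 difference under R848 and the log2 response in WT cells were -0.62 and 0.74 for Sqstm1, 0.27 and -0.39 for Tfeb, 0.24 and -0.24 for Gabarapl1, and 0.26 and -0.22 for Gusb. For Ctsk and Ctsl the WT response was -0.06 each. The Ctsk and Sqstm1 differences passed without any 1 of the 8 libraries. Ctsl was lost without R848-treated KAT8-deficient replicate 1 or either R848-treated WT library (adjusted p 0.128 to 0.136). Gusb and Gabarapl1 were lost without any 1 of the 4 R848-treated libraries (0.056 to 0.143 and 0.0616 to 0.147). Tfeb was lost without any 1 of the 4 R848-treated or the 2 untreated KAT8-deficient libraries (0.0699 to 0.243) and in DESeq2 (0.101). Without R848-treated KAT8-deficient replicate 1 the balance of directions turned: Ctsk alone was higher and 3 genes were lower, Sqstm1, Becn1 (-0.33, adjusted p = 0.0466) and Asah1 (-0.38, adjusted p = 0.0492). With all 8 libraries Becn1 had -0.19 (adjusted p = 0.194) and Asah1 -0.14 (adjusted p = 0.522).

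**Figure D4:**
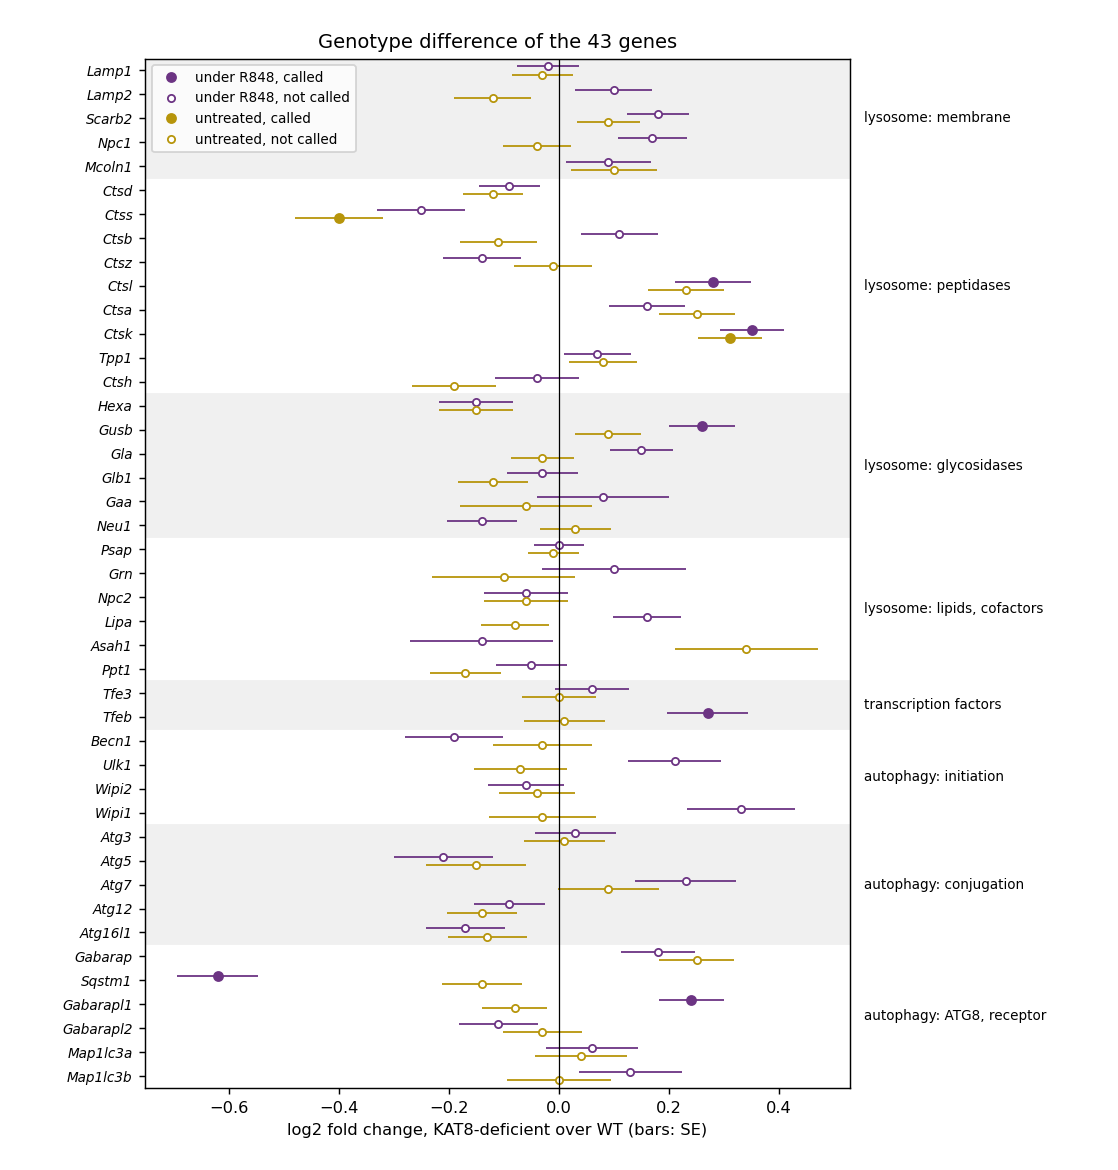
The log2 fold change of KAT8-deficient over WT cells for each of the 43 genes, under R848 (purple) and untreated (gold), with bars of 1 SE. Filled points passed the test at an adjusted p under 0.05. Ctsk lies near 0.3 and Ctss left of 0 in both states, while Sqstm1 lies at -0.62 under R848 and -0.14 untreated.

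The mean genotype difference over both states sets 4 KAT8-deficient against 4 WT libraries. In it 7 of the 43 genes passed (16.3%), 5 higher and 2 lower in KAT8-deficient cells, against 18.6% of all genes, 11% higher and 7.56% lower. Of the cathepsins, Ctsk was higher by 0.33 (SE 0.041, adjusted p = 0.00107), Ctsl by 0.25 (SE 0.049, adjusted p = 0.00835) and Ctsa, the protective protein of the galactosidase complex, by 0.21 (SE 0.049, adjusted p = 0.0203). Ctss was lower, at -0.33 (SE 0.057, adjusted p = 0.0053). Gusb at 0.17 (SE 0.043, adjusted p = 0.0243) and Gabarap at 0.22 (SE 0.048, adjusted p = 0.0162) were higher, and Sqstm1 was lower at -0.38 (SE 0.051, adjusted p = 0.0017). Cathepsins were thus found on both sides, and the 9 peptidases, which are the cathepsins and Tpp1, had a median of 0.00.

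Ctsk had 348 and 349 CPM in R848-treated KAT8-deficient libraries, 353 and 357.5 CPM in untreated KAT8-deficient libraries, 277 and 271 CPM in R848-treated WT libraries, and 296 and 275 CPM in untreated WT libraries. Ctsl, a cysteine protease of the lysosome lumen, had 7016 and 6112 CPM in R848-treated KAT8-deficient libraries, 6764 and 6412 CPM in untreated KAT8-deficient libraries, 5408 and 5387 CPM in R848-treated WT libraries, and 5702 and 5568.5 CPM in untreated WT libraries. For both genes all 4 KAT8-deficient libraries were above all 4 WT libraries. Ctss had 5899.8 and 5372 CPM in R848-treated KAT8-deficient libraries, 5701 and 5689.6 CPM in untreated KAT8-deficient libraries, 6808 and 6617 CPM in R848-treated WT libraries, and 8147.5 and 6914 CPM in untreated WT libraries. Here all 4 KAT8-deficient libraries were below all 4 WT libraries.

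Ctsa had 1479 and 1532 CPM in R848-treated KAT8-deficient libraries, 1624 and 1655 CPM in untreated KAT8-deficient libraries, 1349.7 and 1344 CPM in R848-treated WT libraries, and 1279.5 and 1469 CPM in untreated WT libraries. Gabarap had 511 and 528 CPM in R848-treated KAT8-deficient libraries, 500 and 522 CPM in untreated KAT8-deficient libraries, 477 and 437 CPM in R848-treated WT libraries, and 412 and 449 CPM in untreated WT libraries. Neither overlapped between genotypes. In all, 4 of the 43 genes (Ctsk, Ctsl, Ctsa and Gabarap) were higher and 3 (Ctss, Atg12 and Atg16l1) lower in all 4 KAT8-deficient libraries than in all 4 WT libraries, while 9.42% and 6.6% of all genes were in these classes. Atg12 and Atg16l1, which act in the same lipidation complex, had mean log2 differences of -0.11 (adjusted p = 0.118) and -0.15 (adjusted p = 0.0789).

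Ctsk, Ctsl, Ctss and Sqstm1 passed in the mean difference without any 1 of the 8 libraries. Gabarap was lost without untreated KAT8-deficient replicate 2 (adjusted p = 0.0602) or R848-treated WT replicate 2 (0.0595). Ctsa was lost without either untreated KAT8-deficient library, R848-treated KAT8-deficient replicate 2 or either R848-treated WT library (0.0503 to 0.065), and Gusb without any library but R848-treated KAT8-deficient replicate 2 and untreated WT replicate 2 (0.0504 to 0.0871). Pltp, on the opposite strand, shares 495 exonic bases with Ctsa, and whether the counting used strand is not known from the labels. Ctsl overlaps the antisense gene Gm47123 (26.8% of the exon bases of Ctsl) and the pseudogene Gm49230 on its own strand. The count data held no row for either, so their part in the Ctsl counts is not known.

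Markers of other cells moved with the genotype in the same libraries. Ctsk is also known from osteoclasts and fibroblasts. The stromal markers, 9 of 10 higher in the mean difference with a median of 0.47, summed to 4044 to 4806 CPM in KAT8-deficient libraries and 2753 to 3796 CPM in WT libraries, with Lepr at or near 0. Of the 6 osteoclast markers tested, none was higher and 3 were lower. That list summed to 993 to 1071 CPM in KAT8-deficient libraries and 1004.5 to 1209.9 CPM in WT libraries, and its members Calcr and Ocstamp were at or near 0. Macrophage markers, beside which Ctss is to be read, were higher for 1 and lower for 3 of 10 in the mean difference. In it, 3 lay above and 7 below 0. Untreated, 0 were higher and 1 was lower, and under R848 1 was higher and 4 were lower. Their summed level without Lyz2 was 4224.5 to 4687 CPM in KAT8-deficient libraries and 4672.5 to 5178.5 CPM in WT libraries. These ranges overlap only at their ends. Lyz2 (lysozyme) had a log2 difference of -1.09 in the mean difference (SE 0.049, adjusted p = 1.32e-05). The part of these cells in the genotype differences of Ctsk, Ctsl and Ctss was not tested.

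**Figure D5:**
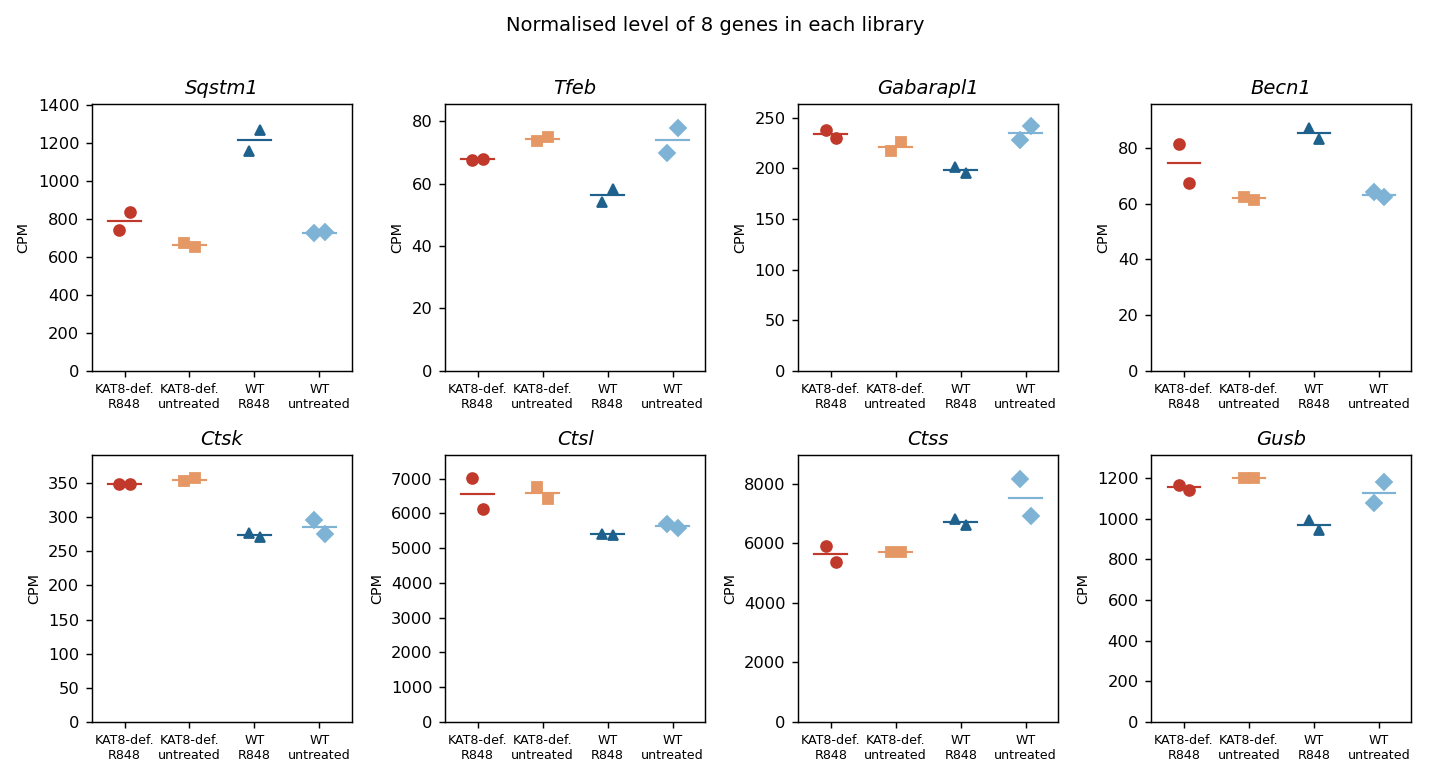
Normalised level (CPM, axes from 0) of Sqstm1, Tfeb, Gabarapl1, Becn1, Ctsk, Ctsl, Ctss and Gusb in each library, with points for single libraries and a line at the mean of each group of 2. Sqstm1 is highest, and Tfeb, Gabarapl1 and Gusb lowest, in R848-treated WT cells, while Ctsk and Ctsl are higher and Ctss lower in all 4 KAT8-deficient libraries.

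Whether the R848 response itself differed between the genotypes was tested as an interaction, with the log2 response of WT cells subtracted from that of KAT8-deficient cells. None of the 43 genes passed in edgeR, 8 were under 0.05 without adjustment, and 0.228% of all genes passed. The median was 0.07 in the lysosomal set, 0.01 in the autophagy set and 0.006 over all genes. Sqstm1 came closest, at -0.48 (SE 0.10, adjusted p = 0.0957), with a 95% interval from -0.72 to -0.25. Its adjusted p was 0.00496 in DESeq2's Wald test, 0.0252 with no filter on low counts and 0.0391 without R848-treated KAT8-deficient replicate 2, so this call depended on the method. Gabarapl1 followed at 0.32 (SE 0.083, adjusted p = 0.161), and Tfeb had 0.26 (SE 0.10, adjusted p = 0.379). In the edgeR fit of all 8 libraries with the filter, a fall or rise that passed in WT cells and not in KAT8-deficient cells is therefore not shown to differ between them.

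Other genes of the same pathway were read from lists by function. Whether their calls hold with a library left out or with another method was not checked. Over all genes, 0.634% passed the R848 response in KAT8-deficient cells and 13.6% that in WT cells. The genotype difference passed for 4.27% untreated, 13.6% under R848 and 18.6% in the mean difference. Of the lists, in the order below, 33.3%, 28.6%, 30%, 5.26% and 22.2% of genes passed the WT response. Between the genotypes under R848, 16.7%, 25%, 10%, 5.26% and 8.33% did. The lists were chosen with earlier results of these data known, so these shares are no test of the lists. Of 18 subunits of the V-ATPase, the pump that acidifies the lysosome, none passed the R848 response in KAT8-deficient cells. In WT cells 2 rose and 4 fell, among them Atp6v1b2 (-0.33, SE 0.05, adjusted p = 0.00331), Atp6v0d2 (-0.36, SE 0.067, adjusted p = 0.00812) and Atp6v1c1 (-0.26, SE 0.066, adjusted p = 0.0309). Between the genotypes 1 subunit was higher in KAT8-deficient cells when untreated (Atp6ap1, 0.38, SE 0.082, adjusted p = 0.0384) and 3 under R848, and none was lower in either state. The 3 were Atp6v0a1 (0.42, SE 0.067, adjusted p = 0.00439), Atp6v1b2 (0.31, SE 0.05, adjusted p = 0.00451) and Tcirg1 (0.27, SE 0.073, adjusted p = 0.0469). In the mean difference 5 of 18 were higher and none lower, with a median of 0.07.

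Of 28 further hydrolases, none passed the R848 response in KAT8-deficient cells, and 3 rose and 5 fell in WT cells. Pla2g15, the lysosomal phospholipase, fell by 0.59 (SE 0.06, adjusted p = 0.000388), the acid phosphatase Acp2 rose by 0.55 (SE 0.061, adjusted p = 0.000647) and the fucosidase Fuca1 fell by 0.31 (SE 0.057, adjusted p = 0.00789). Under R848, 3 hydrolases were higher and 4 lower in KAT8-deficient cells, and Lyz2 had the lowest adjusted p, with a log2 difference of -1.14 (SE 0.069, adjusted p = 0.000143). Pla2g15 (0.44, adjusted p = 0.00198) and Galc (0.34, adjusted p = 0.0103), which removes galactose from galactosylceramide, were higher. Without R848, Lyz2 alone of the 28 passed, at -1.04 (SE 0.069, adjusted p = 0.000304). The Cre driver is not given in the labels, and its part in the Lyz2 differences was not tested.

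Of 20 further lysosomal membrane and sorting proteins, 3 rose and 3 fell with R848 in WT cells, and none passed in KAT8-deficient cells. Mcoln2, a relative of the calcium channel Mcoln1, had 92 and 109.9 CPM in R848-treated KAT8-deficient libraries, 66.7 and 74.3 CPM in untreated KAT8-deficient libraries, 178 and 173 CPM in R848-treated WT libraries, and 61.4 and 72 CPM in untreated WT libraries. It was highest in the treated WT libraries, with a rise of 1.40 in WT cells (SE 0.11, adjusted p = 0.000142). Its log2 change in KAT8-deficient cells was 0.52 (adjusted p = 0.0848), and its difference between the genotypes under R848 was -0.80 (SE 0.11, adjusted p = 0.00188). Mcoln1 itself had log2 responses of -0.06 in KAT8-deficient and -0.05 in WT cells. Sortilin (Sort1) fell with R848 in WT cells by 0.35 (SE 0.059, adjusted p = 0.0051) and Mfsd12 by 0.41 (SE 0.071, adjusted p = 0.00612). In the genotype comparison without R848 none of the 20 was higher and 2 were lower (Mcoln3 at -0.35 and Sort1 at -0.27), and under R848 Laptm4a was higher, at 0.37 (SE 0.055, adjusted p = 0.00321).

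Among 19 regulators and relatives of TFEB (mTORC1, Rag GTPases, Ragulator, folliculin and partners, TSC and MiT factors), Fnip2 alone passed an R848 response. This folliculin-interacting protein fell in WT cells by 0.57 (SE 0.065, adjusted p = 0.00079). It was also the only 1 of the 19 that passed under R848 between the genotypes, higher by 0.32 in KAT8-deficient cells (SE 0.065, adjusted p = 0.0127). Mitf, a relative of Tfeb, was lower in the mean difference, at -0.18 (SE 0.045, adjusted p = 0.0257).

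Of 36 further autophagy genes, none passed the R848 response in KAT8-deficient cells, and 3 rose and 5 fell in WT cells. Falls included Atg13, of the initiating kinase complex (-0.46, SE 0.064, adjusted p = 0.00202), Bnip3l, a mitophagy receptor (-0.43, SE 0.067, adjusted p = 0.00379), and Tecpr1, a tether between autophagosome and lysosome (-0.41, SE 0.069, adjusted p = 0.00535). In the genotype comparison Bnip3l was the single gene to pass without R848, at -0.44 (SE 0.067, adjusted p = 0.0119). Under R848, Uvrag was higher in KAT8-deficient cells (0.26, adjusted p = 0.0377), while the cargo receptor Optn (-0.28, adjusted p = 0.0252) and its kinase Tbk1 (-0.23, adjusted p = 0.0478) were lower. No list of these pathway genes had a member that passed the interaction.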

How the data were processed

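The deposited values are raw read counts per gene and library, per the file headers. The submitters' processing notes name HISAT2, StringTie 1.3.0, edgeR and the mm10 genome (the same build as GRCm38). Not given in the sources used here are the role of each, the use of strand and the counting settings. Per the labels' protocols, messenger RNA was captured on beads. Symbols and exon lengths came from GENCODE M21.

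From the counts, edgeR 4.0.16 (R 4.3.3) was run with filterByExpr, TMM and the quasi-likelihood test on all 8 libraries, fitting a mean for each group with 4 residual degrees of freedom (common biological coefficient of variation 0.096). Tests are two-sided, with Benjamini-Hochberg adjustment over 14040 genes and a threshold of 0.05. SE is the absolute log2 fold change over the square root of F. RPKM is CPM per kilobase of merged exons. The fit was tested on simulated counts.

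The members and lists were chosen with earlier results of these data known. Members given per library are those that passed a comparison (at most 6 with the smallest adjusted p in each) and Tfeb, Tfe3 and Sqstm1. Pathway genes are named up to 3 per list and comparison, by adjusted p. Replicates of a group differed beyond counting error (chi-square per degree of freedom 7.41 to 11.96). Alternatives were DESeq2 size factors, no filter, at least 5 CPM in 2 libraries, DESeq2 1.42.0, limma-voom (limma 3.58.1), a replicate block, only the 4 libraries compared, and leaving out each library.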

Additional observations from a re-analysis of the deposited data

How the results depend on the processing

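Counts of members that passed were compared with those given above. In KAT8-deficient cells the R848 response stayed at 0 of 43 under every alternative. The WT response (9) moved to 3 with only the 4 libraries compared, and ran from 2 to 10 when 1 library was left out. The genotype difference without R848 (2) moved to 4 with no filter on low counts and to 0 with only the 4 libraries compared, with a range of 0 to 4 when 1 library was left out. Under R848 the difference (6) ran from 2 to 7, the mean difference (7) from 4 to 10 and the interaction (0) from 0 to 1 when 1 library was left out. The interaction had 1 call with no filter and 1 in DESeq2, each time Sqstm1. No fold change of a gene that had passed changed sign under any alternative. The lowest counts under these omissions came without untreated WT replicate 2 or either R848-treated WT library (WT response), without either untreated KAT8-deficient library (untreated difference), without either R848-treated WT library (difference under R848) and without untreated KAT8-deficient replicate 2 or R848-treated WT replicate 2 (mean difference). Leaving out a library leaves 1 in its group, which is then assumed to vary like the other groups, and 3 residual degrees of freedom.

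Calls over all genes moved too: for the R848 response in KAT8-deficient cells from 89 to 274 with no filter, 238 in DESeq2, 22 with only the 4 libraries and 2 to 186 without 1 library, and for the interaction from 32 to 245 with no filter, 231 in DESeq2 and 6 to 208 without 1 library. For the untreated difference they moved from 600 to 384 with only the 4 libraries, 871 with no filter and 66 to 606 without 1 library. Without 1 library, the WT response moved from 1916 to between 858 and 1826 genes, the difference under R848 from 1911 to between 784 and 1894, and the mean difference from 2606 to between 1541 and 2247, each lowest without R848-treated WT replicate 1. The shares over all genes thus also moved. The cause was not tested. With the replicate number as a block, 0, 9, 2, 7, 0 and 8 members passed (R848 response in KAT8-deficient and WT cells, difference untreated and under R848, interaction, mean difference). The 9 of the WT response were not the same genes: Gusb (adjusted p = 0.054) and Wipi1 (0.0585) were lost, and Ulk1 (0.038) and Atg7 (0.0385) gained. Deviations of equally numbered libraries correlated between -0.06 and 0.048. That shows no shared shift, but it cannot tell whether the numbers pair the samples, which the labels do not say.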

Other observations

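Replicates lay close together for most of the 43 genes. The median ratio of the higher to the lower replicate was 1.06 in R848-treated KAT8-deficient cells, 1.03 in untreated KAT8-deficient cells, 1.04 in R848-treated WT cells and 1.07 in untreated WT cells. The highest ratios were 1.37 for Asah1 (acid ceramidase) in R848-treated KAT8-deficient cells, 1.15 for Npc2 in untreated KAT8-deficient cells, 1.16 for Ctsb in R848-treated WT cells and 1.33 for Grn (progranulin) in untreated WT cells. Asah1 had 439.8 and 322 CPM in R848-treated KAT8-deficient libraries, 429 and 425 CPM in untreated KAT8-deficient libraries, 438 and 403.5 CPM in R848-treated WT libraries, and 357 and 319 CPM in untreated WT libraries. Its log2 differences, 0.34 untreated and -0.14 under R848 between KAT8-deficient and WT cells, did not pass (adjusted p = 0.19 and 0.522). The untreated difference passed without either R848-treated KAT8-deficient library (0.33 each, adjusted p = 0.0493 without replicate 1 and 0.0489 without replicate 2). So did the rise of Asah1 with R848 in WT cells (0.31 each, adjusted p = 0.0323 and 0.0318), which with all 8 libraries was 0.31 (adjusted p = 0.155). The difference under R848 passed without replicate 1, at -0.38 (adjusted p = 0.0492). Those genes were chosen after their values were seen.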
